A study of Homo sapiens with 30 samples.

Results

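The genes described here are the matrix metalloproteases (MMP), the ADAMTS proteases and their tissue inhibitors (TIMP) in U87 and U251, human glioblastoma cell lines exposed to interferon-γ (IFN-γ). Members were all gene symbols of both deposited expression tables that name a numbered MMP, ADAMTS or TIMP gene, without regard to their values. They numbered 47 of 61471 symbols, with 24 MMP, 19 ADAMTS and 4 TIMP genes. Each line had 5 groups with 3 labelled libraries each. Untreated cells received no IFN-γ, D3, D14 and D28 cells received it for 3, 14 and 28 days, and D28WO cells received it for 14 days and were then cultured for 14 days after its withdrawal. Of the 30 labelled libraries, 28 were used. A pair of U87 columns that carry the same name were left out, so U87 had 13 libraries, with 2 at D3 and 2 at D14, and U251 had 15. The labels disagree on the dose, with 1 µg/mL in the protocol and 1 µL/mL in the sample characteristics, and the study's methods give a mass per volume below 1 µg/mL. According to those methods, both lines are on a register of misidentified lines and were not authenticated after receipt, and the replicates were separate cultures. The labels give day 3 for the collection of the Untreated cells and the study's methods give an earlier day, so whether D3 was matched in time to Untreated is uncertain. No untreated culture of D14 or D28 was among the groups, so that IFN-γ and time in culture cannot be told apart in the comparisons of these groups and of D28WO with Untreated.

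MMPs are zinc-dependent enzymes that cut collagens, laminins, fibronectin and many cell surface proteins, and they are made as inactive precursors that other proteases activate. ADAMTS proteases carry thrombospondin repeats and cut proteoglycans such as versican, brevican and aggrecan, which make up much of the brain's extracellular matrix, as well as procollagens and other matrix proteins. TIMPs bind the active site of MMPs, and TIMP3 also inhibits several ADAMTS proteases. Matrix proteolysis is a known part of how glioma cells move through brain tissue.

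Levels are given in TPM, a transcript abundance scaled by transcript length and by library, on which genes can be compared within a library. The tables of the lines were normalized separately, so no test was made between the lines. Differences are log2 fold changes of TPM + 1, which understate the change of low genes, from limma with Benjamini-Hochberg adjustment over all genes of a line with a mean of at least 0.5 TPM. A member is said to have risen or fallen, or to have passed, only where its adjusted p was under 0.05 and its log2 fold change also exceeded 1 in size. TPM keeps no sequencing depth, so no upper limit can be set on a level listed as 0. Of the markers of the cell of origin, VIM was at 599 TPM or more and CD44 at 394 TPM or more in every library, while SOX2 was at 0 to 0.411 TPM in U87 and at 105 TPM or more in U251. Of the other 4 glial markers of the list, GFAP was at 2.33 to 19.1 TPM, S100B at 0.387 to 3.39, OLIG2 at 3.51 to 32 and NES at 19.7 to 46.5 TPM in U87. In U251, GFAP was at 222.5 to 1309 TPM, S100B at 31.7 to 199, OLIG2 at 0 to 1.33 and NES at 59.6 to 169.6 TPM. SOX2 and S100B were thus low in U87, and OLIG2 was low in U251. Immune markers summed to 214 to 446.5 TPM in U87 and 77.1 to 170 TPM in U251, nearly all of it from CD68, a lysosomal protein, with PTPRC at no more than 1.47 TPM in any library. Genes above 0 numbered 24223 to 25459 in the Untreated libraries of U87 and 26096 to 28649 in its treated libraries, and olfactory receptor genes, which these cells are not known to use, were above 0 for 15.8 to 17% of them in Untreated and 18.3 to 31.6% in treated libraries. In U251, genes above 0 numbered 24450 to 27187 in Untreated, 26475 to 28365 at D3, 27763 to 29771 at D14, 28955 to 30246 at D28 and, after withdrawal, 25633 to 26378 at D28WO, and the olfactory share was 15.1 to 19.5% in Untreated, 21 to 22.5% at D3, 20.2 to 25.7% at D14, 22 to 30.6% at D28 and, after withdrawal, 17.8 to 20.2% at D28WO. The part of this shift in the rises of low members of either line, and in their lower levels at D28WO in U251, was not tested.

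Of the 47 members, 36 had a mean of at least 0.5 TPM in a line and 11 did not and are called not expressed. The latter were MMP8, MMP13, MMP20, MMP21, MMP23A, MMP26 and MMP27, and ADAMTS8, ADAMTS17, ADAMTS19 and ADAMTS20. Their highest library was at 2.12 TPM, for MMP23A in U251, and at 1.2 TPM for the others, for MMP21 in U87, while each was listed at 0 in at least 1 library of either line. In U87 34 members were tested and in U251 31, with 29 tested in both. ADAMTS2, ADAMTS5, ADAMTS14, ADAMTS18 and MMP9 were tested in U87 only, and ADAMTS10 and ADAMTS15 in U251 only. In the line where they were not tested, MMP9 was at 0 to 1.18 TPM, ADAMTS2 at 0 to 0.912, ADAMTS14 at 0 to 0.832, ADAMTS18 at 0 to 0.242 and ADAMTS10 at 0 to 0.295 TPM. A member that is low in most groups could enter the test through the group where it is high, so the counts of members that passed are a description.

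**Figure D1:**
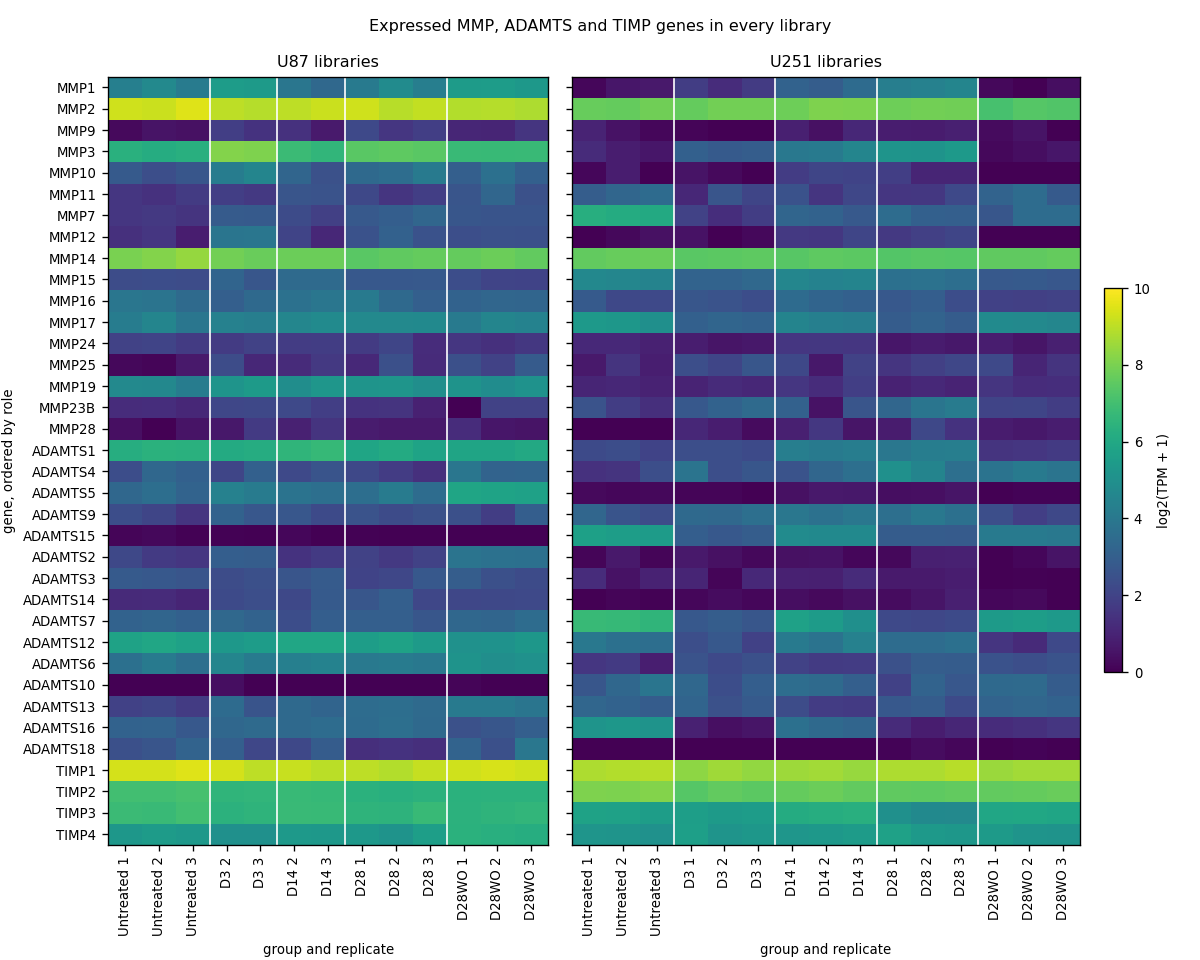
Heat map of log2(TPM + 1) for the 36 expressed members (rows, ordered by role) in the 13 U87 and 15 U251 libraries (columns, group and replicate), with white lines between groups. MMP2, MMP14 and TIMP1 are bright in every library, while MMP7, ADAMTS7, ADAMTS15 and ADAMTS16 are bright in the Untreated libraries of U251 and dark at D3 and D28.

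In U87, most members did not pass at each time, and those that did mostly rose. At D3, 9 of 34 rose and 0 fell, where 6.23% of all genes tested passed, 5.85% higher and 0.384% lower. Of the members, 6 had a lower value with an unadjusted p under 0.05 in limma, the only tool run. Of these, 5 also had an adjusted p under 0.05 and were short of the fold limit. At D14, 3 rose and 0 fell (2.1% of all genes passed, 1.89% higher and 0.209% lower), with 4 lower at an unadjusted and 2 at an adjusted p under 0.05. At D28, 8 rose and 2 fell (7.38%, 6.77% higher and 0.611% lower), with 8 lower at an unadjusted and 7 at an adjusted p under 0.05. At D28WO, 10 rose and 0 fell (14.9%, 12.8% higher and 2.12% lower), with 6 lower at an unadjusted and 6 at an adjusted p under 0.05. Markers also moved with D28WO in U87. Of the 6 tested glial markers, OLIG2 (9.49, 7.06 and 4.94 TPM in Untreated and, after withdrawal, 26.1, 32 and 22 at D28WO) and GFAP (5.3, 6.9 and 2.33 TPM in Untreated and, after withdrawal, 13.9, 11.8 and 16.8 at D28WO) were higher. Without passing, 3 of the 6 had a lower value with an unadjusted p under 0.05 in limma. By group mean, NES was at 41 TPM in Untreated and, after withdrawal, 23.2 at D28WO, VIM at 1307 and 1022, and CD44 at 686 and 521. Of the 3 epithelial markers EPCAM (9.29, 3.14 and 6.55 TPM in Untreated and, after withdrawal, 1.03, 1.38 and 1.21 at D28WO) was lower. Another, without passing, had a higher value with an unadjusted p under 0.05. The mean of CDH1 was 0.389 TPM in Untreated and, after withdrawal, 1.61 at D28WO. At D28, GFAP and S100B were higher, GFAP not past the threshold without library D28 1, D28 2 or Untreated 3 (log2 fold changes 1.02 to 1.28, adjusted p = 0.0672 to 0.0799) and S100B not without library D28 1, D28 2, D28 3, Untreated 2 or Untreated 3 (log2 fold changes 0.85 to 1.12, adjusted p = 0.0855 to 0.164). The summed glial level was 1945 to 2171 TPM in Untreated and 1517 to 1666 TPM at D28WO, the epithelial sum 31.5 to 48.4 and 32.4 to 43.4 TPM, and the endothelial sum 1.63 to 3.37 and 1.06 to 2.89 TPM. Their part in the counts was not tested. From D3 to D28WO, in time order, the median log2 fold change of the members was 0.44, 0.31, 0.15 and 0.46, and that of all genes 0.2, 0.15, 0.19 and 0.25. Under quantile normalization the member medians were 0.11, 0.0033, -0.14 and 0.0097, and under median-ratio size factors 0.26, 0.15, -0.00195 and 0.24, so that at D28 the sign changed. These 4 comparisons share their Untreated libraries. Quantile normalization, which removes the shift of all genes, left 3 rises at D3, 0 at D14, 3 rises with 2 falls at D28, and 4 rises with 1 fall at D28WO, and median-ratio size factors left 6 rises at D28WO. Those left at D3 by quantile normalization were MMP3, MMP10 and MMP12, so the other D3 rises and all D14 rises of U87 named below lost their call under it. The counts rested in part on single libraries. Without library D3 2, 4 members passed at D3. Without D14 2 or D14 3, 0 passed at D14, and without Untreated 3, 1 passed. Without D28 3, 6 passed at D28. The 2 falls at D28 became 0 without Untreated 3, D28 2 or D28 3 and 1 without Untreated 2 or D28 1.

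In U251, the members split between rises and falls. At D3, 5 of 31 rose and 8 fell, where 14.3% of all genes tested passed, 9.72% higher and 4.55% lower, and 7 rose and 5 fell at D14 (5.76%, 4.72% higher and 1.04% lower). At D28, 9 rose and 6 fell (15.2%, 11.9% higher and 3.35% lower), and at D28WO, 2 rose and 6 fell (7.45%, 4.07% higher and 3.38% lower). The median log2 fold change of the members was -0.12, 0.25, -0.02 and -0.32 in this order, and that of all genes 0.13, 0.096, 0.16 and 0.02. With quantile normalization, 1 rose and 8 fell at D3, and 7 rose and 8 fell at D28, and with median-ratio size factors 3 rose and 8 fell at D3. The gene that rose at D3 under quantile normalization was MMP3, so the other D3 rises of U251 lost their call under it. The member medians were -0.28, 0.16, -0.22 and -0.43 under quantile normalization, and that at D28 was 0.002 with only the 2 groups compared. The 5 rises at D3 became 3 without Untreated 1 or D3 1, and the 2 rises at D28WO became 1 without Untreated 3. Members past the threshold in at least 1 of the 7 comparisons of a line numbered 16 of 34 in U87 and 21 of 31 in U251, where 20.5% and 25.8% of all genes tested did so. Those past it in both lines numbered 11 of the 29 tested in both, where 9.38% of all genes tested in both lines did so. Of the 116 pairs of such a member and a time against Untreated, 15 lay apart from Untreated in every library on the same side in both lines with a call in at least 1 line (5.97% of such pairs of all genes), and 15 did so on opposite sides (1.34%).

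The genes of the chromosome 11 cluster come first, since 9 members lie there within 435.2 kb (GRCh38, GENCODE release 44, chr11:102520508-102955732): the collagenases MMP1, MMP8 and MMP13, the stromelysins MMP3 and MMP10, the matrilysin MMP7, the macrophage elastase MMP12, and MMP20 and MMP27. MMP1, MMP3, MMP7, MMP10 and MMP12 were tested, and the other 4 were not expressed. In U87, all 5 rose at D3 (6.23% of all genes passed), 0 passed at D14 (2.1%), 4 rose at D28 (7.38%) and 3 rose at D28WO (14.9%). In U251, MMP7 fell at all 4 times, and of the other genes 2 rose at D3 (14.3% of all genes passed), 4 at D14 (5.76%), 3 at D28 (15.2%) and 0 at D28WO (7.45%). The U87 rises depended on the scaling and on single libraries. Under quantile normalization they numbered 3 at D3 (MMP3, MMP10 and MMP12), 1 at D28 (MMP3) and 0 at D28WO, and under median-ratio size factors 4, 2 and 1. At D3 they were 4 with only the 2 groups compared and without Untreated 3 or D3 2, at D28 3 without Untreated 2 or D28 3, and at D28WO 1 without Untreated 3. In U251, the rises at D3 became 1, MMP3, under quantile normalization and without Untreated 1. With a pseudocount of 0.1, 4 rose at D28, and MMP3 also fell at D28WO. At D14 of U87, where 0 passed in limma, the median of the 5 log2 fold changes was 0.33, and 2 had an unadjusted p under 0.05.

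The 250 bases before the start sites of MMP7 and MMP10, both from RefSeq (GRCh38.p14, minus strand, chr11:102530748-102530997 and chr11:102780629-102780878), are shown because these genes of the cluster both rose at D3 and D28 in U87, while in U251 at D14 MMP7 fell and MMP10 rose against Untreated. Other genes of the cluster lie between them. Capitals mark the AP-1 motif TGANTCA, which binds Fos and Jun proteins. Its first base lies 67 bases before the start site in both.
MMP7: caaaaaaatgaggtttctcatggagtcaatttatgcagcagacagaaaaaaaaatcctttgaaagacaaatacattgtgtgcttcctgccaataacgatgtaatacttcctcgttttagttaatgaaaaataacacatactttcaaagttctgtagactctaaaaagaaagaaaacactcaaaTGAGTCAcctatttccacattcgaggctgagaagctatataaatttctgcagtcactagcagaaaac
MMP10: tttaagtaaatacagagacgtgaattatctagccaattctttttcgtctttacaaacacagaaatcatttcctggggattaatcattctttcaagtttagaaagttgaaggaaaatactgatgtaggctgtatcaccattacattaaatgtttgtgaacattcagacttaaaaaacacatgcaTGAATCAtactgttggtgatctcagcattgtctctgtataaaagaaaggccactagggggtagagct
Of the 47 members, 27 had a promoter entry. The motif, searched on both strands from 250 bases before to 50 after the start, was in 7.76% of all 27305 promoters and in 4 of the 27, namely ADAMTS12, MMP7, MMP10 and MMP20. Only 5 genes of the cluster had an entry, and 3 of these held the motif. Genes without an entry were not searched, so their absence from this list does not show that they lack the motif. The interferon motifs GAS (TTCNNNGAA) and ISRE, also searched on both strands, were in 7.88% and 3.65% of all promoters and in 0 of the 27. These letters are thus not in those windows, and a match is a description of the letters only.

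MMP3, stromelysin-1, which cuts proteoglycans and activates other MMP precursors, had the highest level of the cluster in U87. It was at 79.9, 72.4 and 79.2 TPM in Untreated, 282 and 265 at D3, 112 and 95.4 at D14, 173, 184 and 172 at D28 and, after withdrawal, 109, 105 and 108 at D28WO. Every treated library lay above every Untreated one, and the D3 libraries were highest. The rise at D3 was 1.81 ± 0.08 (SE), adjusted p = 9.10e-08, and that at D28 1.18 ± 0.07 (SE), adjusted p = 6.75e-07. At D14 the value was 0.42 ± 0.08 (SE), adjusted p = 0.0178, and at D28WO 0.47 ± 0.07 (SE), adjusted p = 3.11e-04, both short of the fold limit. From D3 to D14 MMP3 fell (-1.4 ± 0.09 (SE), adjusted p = 2.72e-06).

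In U251, MMP3 started near 0 and rose with each time point. It was at 1.33, 0.735 and 0.53 TPM in Untreated, 7.48, 6.11 and 6.75 at D3, 15.1, 16.5 and 22.2 at D14, 34.7, 34.5 and 41.4 at D28 and, after withdrawal, 0.148, 0.3 and 0.505 at D28WO. The 4 groups Untreated, D3, D14 and D28 did not overlap, and D28WO lay below every other library. MMP3 rose at D3 (2.08 ± 0.20 (SE), adjusted p = 2.35e-06), D14 (3.35 ± 0.20 (SE), adjusted p = 8.30e-08) and D28 (4.36 ± 0.20 (SE), adjusted p = 1.29e-09). At D28WO it differed from Untreated by -0.49 ± 0.20 (SE), adjusted p = 0.0943, and it fell from D28 to D28WO (-4.85 ± 0.20 (SE), adjusted p = 8.12e-09). The step from D14 to D28, 1.01 ± 0.20 (SE), adjusted p = 0.00287, lost the fold limit without library D14 1, D14 2 or D28 3 (log2 fold changes 0.9 to 0.96, adjusted p = 0.0148 to 0.017).

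MMP1, the interstitial collagenase, followed the same order in U251. It was at 0.122, 0.536 and 0.621 TPM in Untreated, 2.56, 1.44 and 2.37 at D3, 7.77, 6.75 and 10.4 at D14, 18.4, 20.2 and 22.4 at D28 and, after withdrawal, 0.174, 0 and 0.307 at D28WO. D28 was highest in every library and D28WO overlapped with Untreated. MMP1 rose at D3 (1.13 ± 0.23 (SE), adjusted p = 0.00149), D14 (2.7 ± 0.23 (SE), adjusted p = 3.10e-06) and D28 (3.92 ± 0.23 (SE), adjusted p = 1.58e-08), and fell from D28 to D28WO (-4.2 ± 0.23 (SE), adjusted p = 6.22e-08). At D28WO the difference from Untreated was -0.29 ± 0.23 (SE), adjusted p = 0.415. The rise at D3 lost the fold limit without library Untreated 1 (log2 fold change 0.97, adjusted p = 0.00784).

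In U87, MMP1 was at 19.1, 25 and 17 TPM in Untreated, 45.6 and 43.2 at D3, 14.4 and 9.5 at D14, 16.6, 27.1 and 18.2 at D28 and, after withdrawal, 43.6, 44.9 and 39.8 at D28WO. The D3 and D28WO libraries lay above all others, and the D14 libraries lay below all others. MMP1 rose at D3 (1.11 ± 0.22 (SE), adjusted p = 0.00696) and at D28WO (1.05 ± 0.20 (SE), adjusted p = 0.00134), fell from D3 to D14 (-1.84 ± 0.24 (SE), adjusted p = 9.38e-04), and rose from D28 to D28WO (1.05 ± 0.20 (SE), adjusted p = 0.00407). The D3 call was lost without library Untreated 3 or D3 2 (log2 fold changes 0.99 to 1.07, adjusted p = 0.0275 to 0.0698). The D28WO call was lost without library Untreated 3 (log2 fold change 0.93, adjusted p = 0.00738), and the step from D28 without library D28 1 or D28 3 (log2 fold changes 0.91 to 0.98, adjusted p = 0.0165 to 0.0174).

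MMP12, the macrophage elastase, had the largest U87 rise of the cluster at D3. It was at 1.6, 1.98 and 0.73 TPM in Untreated, 13.9 and 14.1 at D3, 3.16 and 1.14 at D14, 4.7, 7.7 and 4.72 at D28 and, after withdrawal, 4.27, 4.64 and 4.44 at D28WO. Both D3 libraries exceeded every other library. MMP12 rose at D3 (2.66 ± 0.33 (SE), adjusted p = 3.49e-04), D28 (1.47 ± 0.30 (SE), adjusted p = 0.00537) and D28WO (1.2 ± 0.30 (SE), adjusted p = 0.00724), and fell from D3 to D14 (-2.33 ± 0.37 (SE), adjusted p = 0.003). The D28WO call was lost without library Untreated 3 (log2 fold change 0.97, adjusted p = 0.0309). In U251, MMP12 was at 0, 0.147 and 0.353 TPM in Untreated, 0.401, 0 and 0.153 at D3, 2.19, 2.05 and 3.27 at D14, 2.15, 2.7 and 3.26 at D28 and, after withdrawal, 0, 0 and 0 at D28WO. D14 and D28 lay above the other groups, and D28WO was listed at 0 in every library. MMP12 rose at D14 (1.58 ± 0.23 (SE), adjusted p = 3.30e-04) and D28 (1.67 ± 0.23 (SE), adjusted p = 6.74e-05) and fell from D28 to D28WO (-1.88 ± 0.23 (SE), adjusted p = 5.09e-05).

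MMP10, stromelysin-2, was at 6.1, 4.28 and 5.33 TPM in Untreated, 17.6 and 22.2 at D3, 8.7 and 4.65 at D14, 9.7, 10.9 and 15.8 at D28 and, after withdrawal, 7.1, 11.8 and 7.42 at D28WO in U87. D3 was highest, and Untreated overlapped with D14. MMP10 rose at D3 (1.75 ± 0.30 (SE), adjusted p = 0.00276) and D28 (1.06 ± 0.27 (SE), adjusted p = 0.0153) and fell from D3 to D14 (-1.49 ± 0.33 (SE), adjusted p = 0.0231). The D28 call was lost without library Untreated 2 or D28 3 (log2 fold changes 0.87 to 0.94, adjusted p = 0.0466 to 0.0496), and the step from D3 to D14 without library D3 2, D3 3 or D14 3 (log2 fold changes -1.65 to -1.1, adjusted p = 0.0838 to 0.174). In U251, MMP10 was at 0.139, 0.751 and 0 TPM in Untreated, 0.426, 0.205 and 0 at D3, 2.42, 3.22 and 3.01 at D14, 2.61, 1.04 and 1.04 at D28 and, after withdrawal, 0, 0 and 0 at D28WO. MMP10 rose at D14 (1.62 ± 0.29 (SE), adjusted p = 0.00128) and was not past the fold limit at D28 (0.97 ± 0.29 (SE), adjusted p = 0.015). It fell from D28 to D28WO (-1.3 ± 0.29 (SE), adjusted p = 0.00373), where all 3 libraries were at 0.

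MMP7, matrilysin, a small MMP without the hemopexin domain that is commonly made by epithelial cells, moved in opposite directions in the lines. In U251, MMP7 was at 76.7, 69.8 and 66 TPM in Untreated, 2.95, 1.45 and 2.53 at D3, 8.6, 7.81 and 6 at D14, 10.5, 7.36 and 7.06 at D28 and, after withdrawal, 5.45, 10.5 and 10.5 at D28WO. Every treated library lay far below every Untreated one, D3 lowest. MMP7 fell at D3 (-4.47 ± 0.25 (SE), adjusted p = 8.34e-09), D14 (-3.09 ± 0.25 (SE), adjusted p = 1.41e-06), D28 (-2.96 ± 0.25 (SE), adjusted p = 4.55e-07) and D28WO (-2.92 ± 0.25 (SE), adjusted p = 9.23e-07). From D3 to D14 it rose by 1.37 ± 0.25 (SE), adjusted p = 0.00108.

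In U87, MMP7 was low. It was at 1.96, 2.19 and 1.84 TPM in Untreated, 6.39 and 6.12 at D3, 3.86 and 2.69 at D14, 5.94, 6.84 and 8.85 at D28 and, after withdrawal, 5.47, 5.07 and 4.98 at D28WO. Every treated library lay above every Untreated one. MMP7 rose at D3 (1.28 ± 0.23 (SE), adjusted p = 0.00374), D28 (1.44 ± 0.21 (SE), adjusted p = 5.85e-04) and D28WO (1.04 ± 0.21 (SE), adjusted p = 0.00168), and at D14 its value was 0.5 ± 0.23 (SE), adjusted p = 0.218. Under quantile normalization all of these U87 rises lost their call. The D3 call was also lost with only the 2 groups compared, and the D28WO call under median-ratio size factors.

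**Figure D2:**
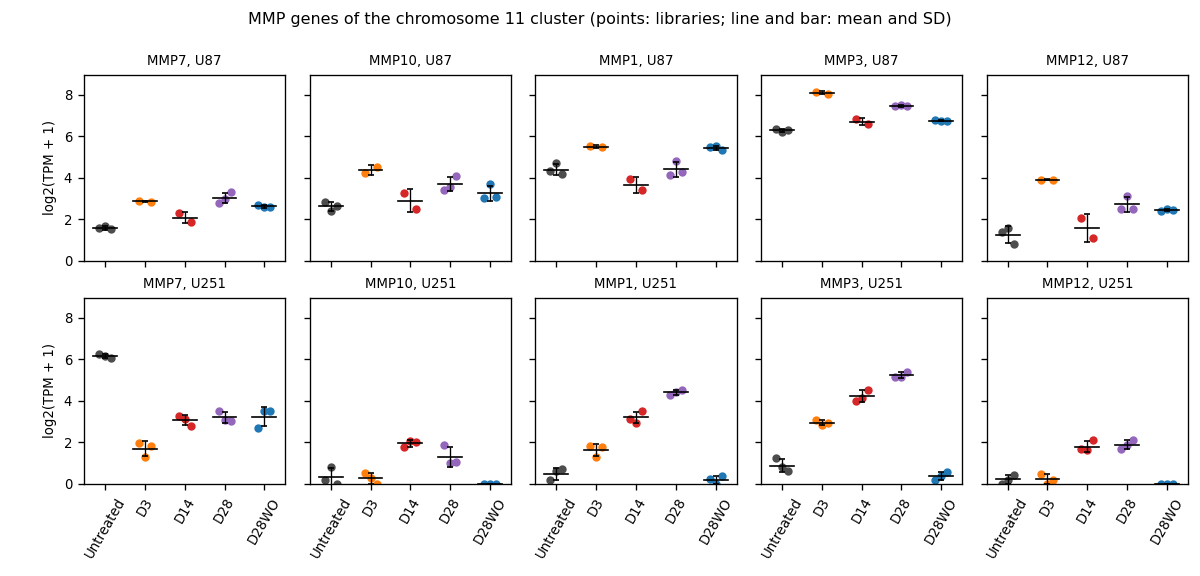
Level in log2(TPM + 1) of the 5 tested genes of the chromosome 11 cluster in U87 (top) and U251 (bottom) by group, with 1 point a library and the mean with its SD as a line and bar. MMP7 falls from the Untreated group in U251 while MMP1 and MMP3 climb to D28 and return to near 0 at D28WO, and all 5 are higher at D3 in U87.

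The third stromelysin, MMP11, lies outside this cluster. In U251, MMP11 was at 6.72, 8.74 and 10.4 TPM in Untreated, 1.15, 5.24 and 3.31 at D3, 4.76, 1.9 and 3.4 at D14, 2, 2.08 and 3.63 at D28 and, after withdrawal, 8.13, 10.5 and 6.16 at D28WO. Untreated and D28WO overlapped and lay above all libraries of the other groups. MMP11 fell at D3 (-1.29 ± 0.37 (SE), adjusted p = 0.012), D14 (-1.18 ± 0.37 (SE), adjusted p = 0.036) and D28 (-1.44 ± 0.37 (SE), adjusted p = 0.00656), and rose from D28 to D28WO (1.38 ± 0.37 (SE), adjusted p = 0.0125). The D3 call was lost without library D3 1 (log2 fold change -0.87, adjusted p = 0.0578), the D14 call without library Untreated 2, Untreated 3, D14 2 or D14 3 (log2 fold changes -1.21 to -0.91, adjusted p = 0.0761 to 0.139), and the step from D28 to D28WO without library D28WO 2 (log2 fold change 1.21, adjusted p = 0.0521). In U87, MMP11 was at 1.96, 1.7 and 2.35 TPM in Untreated, 2.59 and 2.19 at D3, 5.18 and 4.92 at D14, 3.5, 1.89 and 2.63 at D28 and, after withdrawal, 5.26, 8.91 and 4.64 at D28WO and rose at D28WO (1.24 ± 0.26 (SE), adjusted p = 0.00283), a call lost without library D28WO 2 (log2 fold change 0.99, adjusted p = 0.0142).

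The gelatinases cut denatured collagen and basement membrane collagen. By group mean, MMP2 was the highest MMP in both lines, except at D28WO in U251, where MMP14 was higher. In U87, MMP2 was at 627, 588 and 731 TPM in Untreated, 517 and 472 at D3, 519 and 586 at D14, 618, 490.4 and 537 at D28 and, after withdrawal, 459, 469.5 and 441 at D28WO. Untreated and D28WO did not overlap, and the value at D28WO was -0.5 ± 0.10 (SE), adjusted p = 0.00152, short of the fold limit. In U251, MMP2 was at 203, 199 and 226 TPM in Untreated, 199, 236 and 231 at D3, 219.8, 266 and 263 at D14, 224, 235 and 229 at D28 and, after withdrawal, 135, 162 and 156 at D28WO, with a D28WO value of -0.47 ± 0.09 (SE), adjusted p = 0.00145. Thus MMP2 did not pass in either line. MMP9, which inflammatory signals are known to induce, was low. In U87, MMP9 was at 0.186, 0.446 and 0.367 TPM in Untreated, 2.58 and 1.75 at D3, 1.66 and 0.67 at D14, 3.68, 2.03 and 2.58 at D28 and, after withdrawal, 1.09, 1.05 and 1.9 at D28WO. Every treated library exceeded every Untreated one. MMP9 rose at D3 (1.24 ± 0.32 (SE), adjusted p = 0.022) and D28 (1.48 ± 0.28 (SE), adjusted p = 0.00385), and the D3 call was lost without library Untreated 1, Untreated 3 or D3 2 (log2 fold changes 1.05 to 1.26, adjusted p = 0.0513 to 0.159). Quantile normalization and the fit of only the 2 groups compared also lost the D3 call.

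Membrane-type MMPs act at the cell surface, and MMP14 activates the MMP2 precursor together with TIMP2. MMP14 in U87 was at 255, 283 and 339.7 TPM in Untreated, 232 and 206 at D3, 212 and 216 at D14, 175, 187 and 199.7 at D28 and, after withdrawal, 196, 214 and 192 at D28WO. Every treated library lay below every Untreated one, with values of -0.41 ± 0.11 (SE), adjusted p = 0.0257 at D3, -0.44 ± 0.11 (SE), adjusted p = 0.0421 at D14, -0.64 ± 0.10 (SE), adjusted p = 9.35e-04 at D28 and, after withdrawal, -0.53 ± 0.10 (SE), adjusted p = 0.00106 at D28WO, all short of the fold limit. In U251, MMP14 was at 192, 203 and 210.4 TPM in Untreated, 171, 177 and 182 at D3, 169.6, 180.4 and 176 at D14, 160.2, 168 and 162 at D28 and, after withdrawal, 186, 189.7 and 198 at D28WO. The value there at D28 was -0.3 ± 0.05 (SE), adjusted p = 2.29e-04.

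MMP17, which is held at the membrane by a lipid anchor, and MMP15 fell in U251. MMP17 was at 40.4, 38.6 and 30.7 TPM in Untreated, 7.46, 8.59 and 7.77 at D3, 21.6, 18.8 and 17.7 at D14, 6.44, 8.11 and 6.59 at D28 and, after withdrawal, 26.7, 25.2 and 23.2 at D28WO. D3 and D28 lay below the D14 and D28WO libraries, which in turn lay below Untreated. MMP17 fell at D3 (-2.06 ± 0.13 (SE), adjusted p = 3.64e-08) and D28 (-2.22 ± 0.13 (SE), adjusted p = 1.57e-08), rose from D3 to D14 (1.19 ± 0.13 (SE), adjusted p = 2.26e-05), fell from D14 to D28 (-1.34 ± 0.13 (SE), adjusted p = 8.44e-06) and rose from D28 to D28WO (1.7 ± 0.13 (SE), adjusted p = 8.78e-07). In U87, MMP17 was at 17.3, 22.4 and 14 TPM in Untreated, 20 and 18.5 at D3, 23 and 26.7 at D14, 25.3, 25.3 and 26.1 at D28 and, after withdrawal, 15.8, 22.1 and 20.4 at D28WO and passed in no comparison. MMP15 in U251 was at 24.1, 23.3 and 21.4 TPM in Untreated, 7.96, 8.2 and 9.49 at D3, 23.1, 20.5 and 21.5 at D14, 11.8, 12.7 and 11.4 at D28 and, after withdrawal, 5.93, 6.12 and 5.56 at D28WO. MMP15 fell at D3 (-1.33 ± 0.11 (SE), adjusted p = 5.25e-07) and at D28WO (-1.8 ± 0.11 (SE), adjusted p = 3.74e-08), rose from D3 to D14 (1.25 ± 0.11 (SE), adjusted p = 3.00e-06), and at D28 was at -0.88 ± 0.11 (SE), adjusted p = 2.46e-05. In U87, MMP15 was at 3.99, 4.13 and 3.94 TPM in Untreated, 8.3 and 5.31 at D3, 9.91 and 10 at D14, 5.82, 5.66 and 5.91 at D28 and, after withdrawal, 4.17, 3.1 and 3.07 at D28WO and rose at D14 (1.13 ± 0.22 (SE), adjusted p = 0.0196), a call lost without library Untreated 3, D14 2 or D14 3 (log2 fold changes 1.12 to 1.13, adjusted p = 0.0506 to 0.121).

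MMP25, the other lipid-anchored member, was low in both lines. In U87, MMP25 was at 0.169, 0.0963 and 0.608 TPM in Untreated, 3.97 and 1.18 at D3, 1.34 and 2.18 at D14, 1.24, 4.38 and 1.38 at D28 and, after withdrawal, 4.37, 2.9 and 6.4 at D28WO and rose at D28 (1.26 ± 0.42 (SE), adjusted p = 0.0481) and D28WO (2.08 ± 0.42 (SE), adjusted p = 0.00201). The D28 call was lost without library Untreated 1, Untreated 2, Untreated 3, D28 1, D28 2 or D28 3 (log2 fold changes 0.86 to 1.49, adjusted p = 0.0501 to 0.177). In U251, MMP25 was at 0.599, 1.84 and 0.804 TPM in Untreated, 4.26, 3.3 and 5.4 at D3, 3.44, 0.564 and 2.97 at D14, 1.93, 2.76 and 3.43 at D28 and, after withdrawal, 3.6, 1.05 and 1.81 at D28WO and rose at D3 (1.38 ± 0.41 (SE), adjusted p = 0.0144), a call lost without library Untreated 1 or D3 3 (log2 fold changes 1.22 to 1.24, adjusted p = 0.0521 to 0.0543). MMP25, MMP24, MMP2 and ADAMTS9 have antisense genes in the annotation. The strand setting of the counting is not given in the sources used here, and without strand a gene and its antisense partner cannot be told apart. MMP16 in U87 was at 14.1, 13.5 and 9.96 TPM in Untreated, 7.18 and 9.67 at D3, 12.3 and 14.1 at D14, 16.5, 9.75 and 7.17 at D28 and, after withdrawal, 7.78, 8.91 and 8.52 at D28WO, and passed in no comparison. In U251 MMP16 was at 6.05, 3.48 and 3.65 TPM in Untreated, 5.31, 4.93 and 4.14 at D3, 10.2, 8.28 and 7.42 at D14, 5.75, 6.97 and 4.09 at D28 and, after withdrawal, 2.85, 2.69 and 2.9 at D28WO, with 0.86 ± 0.22 (SE), adjusted p = 0.0137 at D14. MMP24 was between 1.39 and 3.31 TPM in U87 and 0.482 and 2.08 TPM in U251 and passed in no comparison.

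Of the other MMPs, MMP19 was at 25.1, 24.1 and 17.2 TPM in Untreated, 34.8 and 42.2 at D3, 28.5 and 36.6 at D14, 35.2, 36.3 and 29.5 at D28 and, after withdrawal, 33.9, 28.3 and 33.6 at D28WO in U87. Every treated library exceeded every Untreated one, with 0.78 ± 0.18 (SE), adjusted p = 0.0132 at D3, under the fold limit. In U251 it was between 0.941 and 2.65 TPM and passed in no comparison. MMP23B in U251 was at 4.82, 2.52 and 1.57 TPM in Untreated, 5.81, 7.75 and 9.98 at D3, 7.72, 0.389 and 5.28 at D14, 8.98, 13.9 and 16.9 at D28 and, after withdrawal, 3.13, 3.26 and 2.52 at D28WO. MMP23B rose at D28 (1.89 ± 0.53 (SE), adjusted p = 0.0117) and from D14 to D28 (1.71 ± 0.53 (SE), adjusted p = 0.0356), and fell from D28 to D28WO (-1.81 ± 0.53 (SE), adjusted p = 0.0207). These calls were lost without library Untreated 3 (log2 fold change 1.61, adjusted p = 0.0521), without library D14 2, D28 2 or D28 3 (log2 fold changes 0.91 to 1.66, adjusted p = 0.0965 to 0.112) and without library D28 2, D28 3 or D28WO 3 (log2 fold changes -1.75 to -1.63, adjusted p = 0.06 to 0.0741), in that order. MMP23A is a near copy of MMP23B, was at 0 to 2.12 TPM in U251, and may share reads with it, so that the level of MMP23B is uncertain. MMP28, epilysin, was listed at 0 in all 3 Untreated libraries of U251, at 1.14, 0.73 and 0.216 TPM at D3, 0.852, 2.08 and 0.496 at D14, 0.696, 3.53 and 1.77 at D28 and, after withdrawal, 0.677, 0.57 and 0.741 at D28WO, and rose at D28 (log2 fold change 1.47, adjusted p = 0.00479). In U87, MMP23B was at 0 to 3.64 TPM and MMP28 at 0 to 2.24 TPM, and neither passed in any comparison.

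Among ADAMTS proteases, the hyalectanases cut versican, brevican and aggrecan. ADAMTS15 was at 50.7, 46.5 and 44.3 TPM in Untreated, 6.85, 5.68 and 6.8 at D3, 27.1, 25.9 and 25.8 at D14, 6.5, 6.49 and 6.3 at D28 and, after withdrawal, 16.6, 16.4 and 14.9 at D28WO in U251. No group overlapped with Untreated, and D3 and D28 were lowest. ADAMTS15 fell at D3 (-2.69 ± 0.10 (SE), adjusted p = 1.79e-10), D28 (-2.69 ± 0.10 (SE), adjusted p = 1.59e-10) and D28WO (-1.5 ± 0.10 (SE), adjusted p = 1.04e-07), and was at -0.82 ± 0.10 (SE), adjusted p = 8.64e-05 at D14. It rose from D3 to D14 (1.88 ± 0.10 (SE), adjusted p = 3.80e-08) and from D28 to D28WO (1.19 ± 0.10 (SE), adjusted p = 2.05e-06), and fell from D14 to D28 (-1.88 ± 0.10 (SE), adjusted p = 3.14e-08). In U87, ADAMTS15 was at 0 to 0.16 TPM.

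ADAMTS1 and ADAMTS4 went the other way in U251. ADAMTS1 was at 3.7, 4.18 and 3.03 TPM in Untreated, 4.25, 4.26 and 3.78 at D3, 18.1, 16.6 and 17.9 at D14, 14.5, 18.1 and 18.6 at D28 and, after withdrawal, 1.85, 1.99 and 2.23 at D28WO. D14 and D28 lay above all other libraries, and D28WO below all others. ADAMTS1 rose at D14 (2.01 ± 0.15 (SE), adjusted p = 9.68e-07) and D28 (1.96 ± 0.15 (SE), adjusted p = 2.49e-07), but was at 0.14 ± 0.15 (SE), adjusted p = 0.497 at D3, and fell from D28 to D28WO (-2.57 ± 0.15 (SE), adjusted p = 1.08e-07). In U87, where it was more abundant, it was at 74.4, 83.2 and 80.3 TPM in Untreated, 68.9 and 72.1 at D3, 92.5 and 102 at D14, 58.4, 67.6 and 55.3 at D28 and, after withdrawal, 56.7, 56.5 and 64.8 at D28WO and passed in no comparison. ADAMTS4 in U251 was at 1.71, 1.86 and 4.34 TPM in Untreated, 13.6, 4.23 and 5.33 at D3, 4.92, 8.91 and 11.7 at D14, 31.4, 21.7 and 11.7 at D28 and, after withdrawal, 12.9, 16 and 13.5 at D28WO. ADAMTS4 rose at D3 (1.18 ± 0.43 (SE), adjusted p = 0.0401), D14 (1.39 ± 0.43 (SE), adjusted p = 0.0335), D28 (2.61 ± 0.43 (SE), adjusted p = 2.50e-04) and D28WO (2.12 ± 0.43 (SE), adjusted p = 0.00193). The D3 call was lost without library Untreated 1, Untreated 2 or D3 1 (log2 fold changes 0.73 to 1.04, adjusted p = 0.117 to 0.188), and the D14 call without library Untreated 1, Untreated 2, D14 2 or D14 3 (log2 fold changes 1.15 to 1.32, adjusted p = 0.0898 to 0.127).

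In U87, ADAMTS4 was at 4.08, 9.14 and 7.42 TPM in Untreated, 3.23 and 7.45 at D3, 3.58 and 5.11 at D14, 3.55, 2.4 and 1.6 at D28 and, after withdrawal, 14.1, 8.04 and 8.38 at D28WO. ADAMTS4 fell at D28 (-1.14 ± 0.36 (SE), adjusted p = 0.0379), a call lost without library Untreated 2, Untreated 3, D28 2 or D28 3 (log2 fold changes -1.14 to -0.93, adjusted p = 0.0893 to 0.117), and rose from D28 to D28WO (1.66 ± 0.36 (SE), adjusted p = 0.00795). ADAMTS5, the main aggrecanase of cartilage, was at 9.19, 11.2 and 8.11 TPM in Untreated, 19.9 and 17.1 at D3, 13.1 and 11.6 at D14, 11.4, 17.1 and 10.5 at D28 and, after withdrawal, 57.2, 54.2 and 51.4 at D28WO in U87. The D28WO libraries stood clear of all others. It rose at D28WO against Untreated (2.41 ± 0.18 (SE), adjusted p = 1.67e-06) and against D28 (2.01 ± 0.18 (SE), adjusted p = 7.55e-05), and was at 0.4 ± 0.18 (SE), adjusted p = 0.131 at D28. In U251 it was at 0.0245 to 0.587 TPM. ADAMTS9 in U251 was at 8.75, 5.03 and 4.01 TPM in Untreated, 9.79, 9.3 and 11.7 at D3, 14.6, 12.4 and 14.4 at D14, 11.6, 15.1 and 11.9 at D28 and, after withdrawal, 4.25, 2.64 and 3.47 at D28WO. ADAMTS9 rose at D14 (1.15 ± 0.23 (SE), adjusted p = 0.00272) and D28 (1.05 ± 0.23 (SE), adjusted p = 0.00219) and fell from D28 to D28WO (-1.64 ± 0.23 (SE), adjusted p = 1.21e-04). The D14 call was lost without library Untreated 3 (log2 fold change 0.94, adjusted p = 0.0138) and the D28 call without library Untreated 2, Untreated 3 or D28 2 (log2 fold changes 0.84 to 0.98, adjusted p = 0.0108 to 0.0133). In U87 it was between 1.94 and 7.87 TPM and passed in no comparison.

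ADAMTS2, ADAMTS3 and ADAMTS14 remove the amino-terminal propeptide of procollagens. ADAMTS2 was at 3.47, 2.23 and 1.98 TPM in Untreated, 6.92 and 6.66 at D3, 1.72 and 2.23 at D14, 2.91, 2.15 and 2.93 at D28 and, after withdrawal, 13.4, 12.3 and 12 at D28WO in U87. D3 and D28WO stood above the other groups. ADAMTS2 rose at D3 (1.15 ± 0.24 (SE), adjusted p = 0.00834) and D28WO (1.95 ± 0.21 (SE), adjusted p = 3.05e-05), fell from D3 to D14 (-1.39 ± 0.26 (SE), adjusted p = 0.00967) and rose from D28 to D28WO (1.9 ± 0.21 (SE), adjusted p = 2.26e-04). The D3 call was lost without library D3 2 (log2 fold change 1.13, adjusted p = 0.0681) and the step to D14 without library D3 2 or D14 2 (log2 fold changes -1.37 to -1.27, adjusted p = 0.0712 to 0.0849). ADAMTS14 was at 1.26, 1.35 and 1.07 TPM in Untreated, 3.76 and 4.31 at D3, 3.46 and 6.08 at D14, 5.38, 7.22 and 3.36 at D28 and, after withdrawal, 3.32, 3.44 and 3.66 at D28WO. Every treated library exceeded every Untreated one. ADAMTS14 rose at D3 (1.18 ± 0.30 (SE), adjusted p = 0.0215), D14 (1.34 ± 0.30 (SE), adjusted p = 0.0308), D28 (1.46 ± 0.27 (SE), adjusted p = 0.003) and D28WO (1.01 ± 0.27 (SE), adjusted p = 0.0102). Calls were lost at D3 without library Untreated 3, D3 2 or D3 3 (log2 fold changes 1.1 to 1.25, adjusted p = 0.0587 to 0.104), at D14 without library Untreated 1, Untreated 3, D14 2 or D14 3 (log2 fold changes 1.0 to 1.67, adjusted p = 0.0573 to 0.216) and at D28WO without library Untreated 3 or D28WO 3 (log2 fold changes 0.95 to 0.98, adjusted p = 0.0323 to 0.0329). ADAMTS3 was between 2.98 and 6.82 TPM in U87 and at 0 to 1.4 TPM in U251, and passed in no comparison.

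ADAMTS7 and ADAMTS12 cut cartilage oligomeric matrix protein. ADAMTS7 was the highest ADAMTS gene of untreated U251. The 250 bases before its start site (RefSeq, GRCh38.p14, minus strand, chr15:78811465-78811714), shown because this gene had a large fall, are rich in G and C and hold none of the motifs named above.
ADAMTS7: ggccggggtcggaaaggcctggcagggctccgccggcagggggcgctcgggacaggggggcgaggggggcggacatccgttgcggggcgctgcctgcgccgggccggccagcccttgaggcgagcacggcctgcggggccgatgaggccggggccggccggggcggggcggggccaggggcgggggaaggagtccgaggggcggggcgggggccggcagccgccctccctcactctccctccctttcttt
ADAMTS7 in U251 was at 106, 104 and 92.4 TPM in Untreated, 5.68, 6.63 and 5.47 at D3, 52.4, 43.5 and 30.5 at D14, 3.64, 3.4 and 3.7 at D28 and, after withdrawal, 42.3, 46.6 and 41.9 at D28WO. Untreated lay above all other libraries, and D3 and D28 lay below all D14 and D28WO libraries. ADAMTS7 fell at D3 (-3.88 ± 0.15 (SE), adjusted p = 2.72e-10), D14 (-1.27 ± 0.15 (SE), adjusted p = 6.39e-05), D28 (-4.47 ± 0.15 (SE), adjusted p = 5.70e-11) and D28WO (-1.19 ± 0.15 (SE), adjusted p = 5.28e-05). It rose from D3 to D14 (2.61 ± 0.15 (SE), adjusted p = 7.03e-08), fell from D14 to D28 (-3.2 ± 0.15 (SE), adjusted p = 9.85e-09) and rose from D28 to D28WO (3.28 ± 0.15 (SE), adjusted p = 1.49e-08). Its pseudogenes ADAMTS7P1, ADAMTS7P3 and ADAMTS7P4 were at up to 0.163, 1.72 and 0.244 TPM in U251. In U87, ADAMTS7 was between 4.1 and 10.6 TPM and passed in no comparison. ADAMTS12 in U251 was at 15.2, 12.1 and 11.1 TPM in Untreated, 4.35, 5.66 and 2.81 at D3, 15.9, 13 and 20 at D14, 10.7, 10.7 and 12 at D28 and, after withdrawal, 1.9, 1.28 and 3.64 at D28WO. ADAMTS12 fell at D3 (-1.42 ± 0.27 (SE), adjusted p = 7.24e-04) and D28WO (-2.13 ± 0.27 (SE), adjusted p = 3.74e-05), rose from D3 to D14 (1.73 ± 0.27 (SE), adjusted p = 3.19e-04), and fell from D28 to D28WO (-1.96 ± 0.27 (SE), adjusted p = 1.03e-04). In U87, ADAMTS12 was at 53.6, 59.9 and 52 TPM in Untreated, 39 and 45.2 at D3, 58.8 and 58.8 at D14, 46, 53.4 and 43.2 at D28 and, after withdrawal, 32.7, 33 and 38.3 at D28WO, with -0.66 ± 0.11 (SE), adjusted p = 4.29e-04 at D28WO, short of the fold limit.

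ADAMTS16 had the largest fall of the U251 members at D3. It was at 35.4, 38 and 34.4 TPM in Untreated, 0.894, 0.324 and 0.483 at D3, 12, 9.64 and 8.65 at D14, 1.33, 0.75 and 1.09 at D28 and, after withdrawal, 1.43, 1.65 and 1.99 at D28WO. D3, D28 and D28WO lay below all Untreated and D14 libraries. ADAMTS16 fell at D3 (-4.57 ± 0.20 (SE), adjusted p = 6.94e-10), D14 (-1.74 ± 0.20 (SE), adjusted p = 3.59e-05), D28 (-4.17 ± 0.20 (SE), adjusted p = 1.63e-09) and D28WO (-3.79 ± 0.20 (SE), adjusted p = 6.83e-09), rose from D3 to D14 (2.83 ± 0.20 (SE), adjusted p = 3.58e-07) and fell from D14 to D28 (-2.43 ± 0.20 (SE), adjusted p = 1.45e-06). It did not pass from D28 to D28WO (0.39 ± 0.20 (SE), adjusted p = 0.167). In U87, ADAMTS16 was at 7.77, 8.03 and 5.69 TPM in Untreated, 9.12 and 10.1 at D3, 9.72 and 10.5 at D14, 10.4, 11.6 and 9.62 at D28 and, after withdrawal, 4.61, 5.45 and 7.11 at D28WO and passed in no comparison.

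Beside the falls of MMP7, MMP17, ADAMTS7, ADAMTS15 and ADAMTS16 in U251, the endothelial, epithelial and glial sums were below Untreated in every treated library. The immune sum was not at D28. It was 135 to 143 TPM in Untreated, 77.1 to 137 at D3, 96.3 to 109 at D14, 137 to 170 at D28 and, after withdrawal, 92.9 to 112 at D28WO. The summed level of the 3 endothelial markers was 26.6 to 38.4 TPM in Untreated, 2.45 to 3.46 at D3, 9.79 to 21.4 at D14, 4.16 to 4.82 at D28 and, after withdrawal, 4.31 to 8.8 at D28WO. In Untreated it came largely from CDH5 (31, 26.6 and 25.2 TPM in Untreated and 0.492, 0.552 and 0.651 at D3). The fall was thus mainly that of CDH5, while PECAM1 was at 1.71, 0.0763 and 0.193 TPM in Untreated and 1.84, 2.38 and 1.91 at D28. That of the 3 epithelial markers, mostly KRT8, was 64.0 to 68.3 TPM in Untreated, 28.2 to 35.8 at D3, 37 to 44 at D14, 25.5 to 44.3 at D28 and, after withdrawal, 29.4 to 31.3 at D28WO, and D28WO lay below D14. The 7 glial markers summed to 3703 to 3775 TPM in Untreated, 1489 to 1825 at D3, 2578 to 2971 at D14, 1617 to 1835 at D28 and, after withdrawal, 2108 to 2179 at D28WO, with GFAP at 1309, 1246 and 1219 TPM in Untreated and 299.5, 365 and 361 at D3. Their part in the falls was not tested, and fewer cells of a type and less RNA per cell cannot be told apart in bulk RNA.

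ADAMTS13, the protease of von Willebrand factor, rose in U87. It was at 2.8, 3.27 and 2.38 TPM in Untreated, 10.3 and 5 at D3, 9.71 and 8.32 at D14, 10.7, 11.2 and 9.85 at D28 and, after withdrawal, 15.8, 16.3 and 13.7 at D28WO. Every treated library exceeded every Untreated one. ADAMTS13 rose at D3 (1.12 ± 0.25 (SE), adjusted p = 0.0121), D14 (1.4 ± 0.25 (SE), adjusted p = 0.0139), D28 (1.61 ± 0.22 (SE), adjusted p = 5.17e-04) and D28WO (2.09 ± 0.22 (SE), adjusted p = 2.55e-05). The D3 call was lost without library D3 2 (log2 fold change 0.66, adjusted p = 0.134), and the D14 call without library D14 2 or D14 3 (log2 fold changes 1.3 to 1.5, adjusted p = 0.0771 to 0.117). The D3 and D14 calls were also lost under quantile normalization and with only the 2 groups compared. In U251, ADAMTS13 was at 8.94, 7.86 and 6.45 TPM in Untreated, 8.26, 4.53 and 6.09 at D3, 4.06, 2.45 and 2.28 at D14, 5.79, 6.46 and 3.78 at D28 and, after withdrawal, 8.21, 8.89 and 7.86 at D28WO and fell at D14 (-1.17 ± 0.24 (SE), adjusted p = 0.00352).

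ADAMTS6 rose in both lines. In U87, ADAMTS6 was at 12.1, 16.6 and 11.6 TPM in Untreated, 22.6 and 15.8 at D3, 19 and 20.9 at D14, 15.5, 16.9 and 15.2 at D28 and, after withdrawal, 33.9, 29.8 and 32 at D28WO. D28WO lay above all other libraries, with 1.2 ± 0.16 (SE), adjusted p = 1.26e-04. In U251, ADAMTS6 was at 2.01, 2.25 and 0.775 TPM in Untreated, 4.93, 3.63 and 4.49 at D3, 2.93, 2.33 and 2.47 at D14, 4.64, 6.67 and 6.42 at D28 and, after withdrawal, 4.8, 4.28 and 4.88 at D28WO and rose at D3 (1.04 ± 0.24 (SE), adjusted p = 0.00301), D28 (1.4 ± 0.24 (SE), adjusted p = 3.23e-04) and D28WO (1.12 ± 0.24 (SE), adjusted p = 0.00267). The D3 call was lost without library Untreated 3 or D3 1 (log2 fold changes 0.77 to 0.96, adjusted p = 0.0118 to 0.0144) and the D28WO call without library Untreated 3 (log2 fold change 0.85, adjusted p = 0.00962). Under quantile normalization the D3 call in U251 was lost as well. ADAMTS18 in U87 was at 4.45, 5.22 and 8.04 TPM in Untreated, 7.06 and 3.34 at D3, 3.48 and 6.51 at D14, 1.54, 1.78 and 1.53 at D28 and, after withdrawal, 8.06, 4.43 and 14.8 at D28WO. ADAMTS18 fell at D28 (-1.37 ± 0.39 (SE), adjusted p = 0.0262), a call lost without library Untreated 3, D28 1, D28 2 or D28 3 (log2 fold changes -1.41 to -1.15, adjusted p = 0.0552 to 0.101), and rose from D28 to D28WO (1.81 ± 0.39 (SE), adjusted p = 0.00789). ADAMTS10, which acts on fibrillin microfibrils, was between 2.86 and 13.7 TPM in U251 and passed in no comparison.

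**Figure D3:**
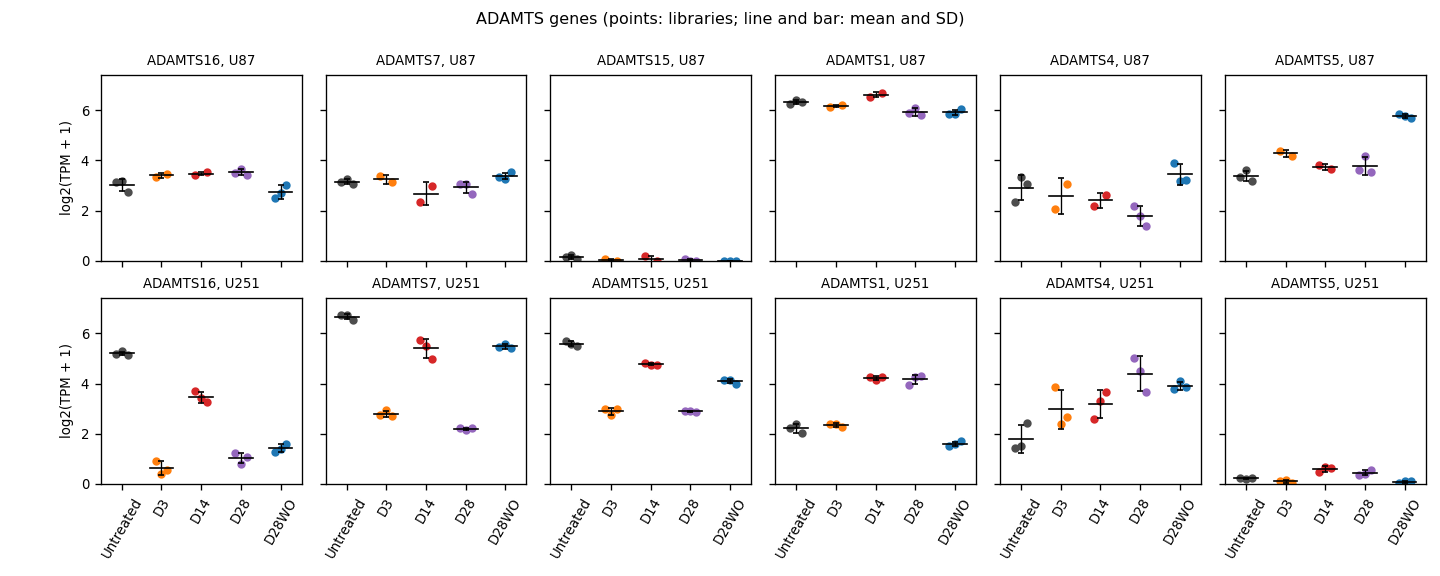
Level in log2(TPM + 1) of 6 ADAMTS genes in U87 (top) and U251 (bottom) by group, with 1 point a library and the mean with its SD as a line and bar. ADAMTS16, ADAMTS7 and ADAMTS15 drop at D3 and D28 in U251, ADAMTS1 rises there at D14 and D28, and ADAMTS5 stands above the other groups at D28WO in U87.

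TIMP1 was the highest inhibitor in both lines. In U87, TIMP1 was at 647, 647 and 735 TPM in Untreated, 658 and 516 at D3, 578 and 496 at D14, 519, 455 and 555 at D28 and, after withdrawal, 619, 681 and 618 at D28WO, and in U251 at 429.6, 459.7 and 482 TPM in Untreated, 318, 377 and 330.0 at D3, 372, 388 and 353 at D14, 430.0, 433 and 489 at D28 and, after withdrawal, 358, 387 and 391 at D28WO. It passed in no comparison, and its value at D3 in U251 was -0.42 ± 0.07 (SE), adjusted p = 3.83e-04. TIMP2 was at 124, 124 and 135 TPM in Untreated, 92.5 and 94.7 at D3, 105 and 102 at D14, 82, 79.1 and 84.6 at D28 and, after withdrawal, 83.8, 84.2 and 85.8 at D28WO in U87. Every treated library lay below every Untreated one, with -0.63 ± 0.06 (SE), adjusted p = 2.60e-05 at D28. In U251, TIMP2 was at 264, 263 and 283 TPM in Untreated, 162, 191 and 176 at D3, 196, 213 and 194 at D14, 187, 185 and 192 at D28 and, after withdrawal, 192, 199 and 208 at D28WO, again with every treated library below every Untreated one, and -0.61 ± 0.06 (SE), adjusted p = 3.19e-06 at D3. TIMP2 values were short of the fold limit in all comparisons of both lines.

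TIMP3, which binds to the matrix, was the only inhibitor past the threshold, and only in U251. It was at 53.1, 51.4 and 46.1 TPM in Untreated, 47.3, 43.2 and 45.6 at D3, 69.7, 73.2 and 77.9 at D14, 31.3, 26.1 and 25 at D28 and, after withdrawal, 59.5, 60.6 and 58.2 at D28WO there. D14 was highest and D28 lowest, with no overlap between them and the other groups. It fell from D14 to D28 (-1.4 ± 0.09 (SE), adjusted p = 1.07e-07) and rose from D28 to D28WO (1.09 ± 0.09 (SE), adjusted p = 9.63e-07), and at D28 it was at -0.85 ± 0.09 (SE), adjusted p = 3.18e-06 against Untreated. In U87, TIMP3 was at 112, 108 and 124 TPM in Untreated, 84.7 and 89.7 at D3, 109 and 107 at D14, 90.1, 86.2 and 106 at D28 and, after withdrawal, 85.7, 89.4 and 94.1 at D28WO. TIMP4 in U87 was at 38.4, 44.2 and 39.4 TPM in Untreated, 31.5 and 31.4 at D3, 40.7 and 39 at D14, 39.1, 34.6 and 47.2 at D28 and, after withdrawal, 82.5, 79.2 and 74.4 at D28WO. The D28WO libraries stood above all others, with 0.94 ± 0.11 (SE), adjusted p = 4.40e-05 against Untreated and 0.96 ± 0.11 (SE), adjusted p = 2.25e-04 against D28, both just under the fold limit. In U251, TIMP4 was at 35.8, 35.5 and 32.5 TPM in Untreated, 49.4, 35.2 and 38.7 at D3, 37.3, 39.3 and 44.1 at D14, 51.8, 40.8 and 38.2 at D28 and, after withdrawal, 42.3, 34.7 and 33.8 at D28WO and passed in no comparison.

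**Figure D4:**
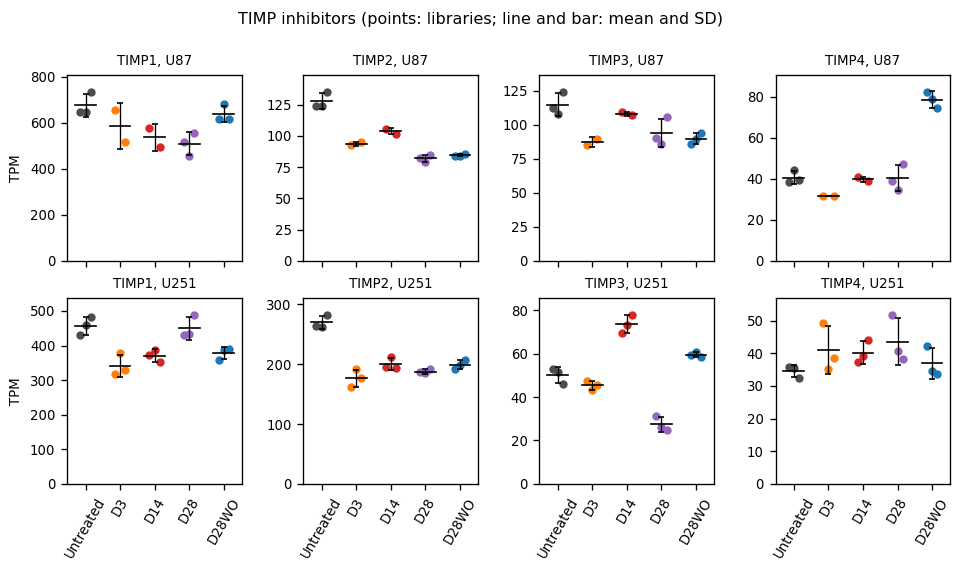
TPM of the 4 TIMP genes in U87 (top) and U251 (bottom) by group, on a linear axis from 0, with 1 point a library and the mean with its SD as a line and bar. TIMP3 in U251 is lowest at D28, TIMP4 in U87 is highest at D28WO, and TIMP2 is highest in Untreated in both lines.

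Summed over members, ADAMTS levels in U251 were 229 ± 12.1 TPM (SD, n = 3) in Untreated, 58.6 ± 10.4 at D3, 152 ± 11.7 at D14, 93.6 ± 7.72 at D28 and, after withdrawal, 105.5 ± 4.82 at D28WO. In U87 the sum was 201 ± 14.7 TPM in Untreated, 209 ± 6.44 at D3, 239.6 ± 13.2 at D14, 186 ± 18.6 at D28 and, after withdrawal, 256 ± 14.9 at D28WO (n = 3 each, but n = 2 for D3 and D14). The summed TIMP level as a percent of the summed MMP level in U87 was 86.5 ± 1.95 in Untreated, 68.8 ± 4.85 at D3, 79.7 ± 9.6 at D14, 69.3 ± 6.23 at D28 and, after withdrawal, 98.4 ± 1.47 at D28WO, with the same n. In U251 it was 144 ± 3.72 in Untreated, 134.6 ± 7.27 at D3, 129 ± 6.57 at D14, 138.7 ± 7.16 at D28 and, after withdrawal, 167 ± 2.85 at D28WO (n = 3 each). It was thus highest at D28WO in both lines, and its mean was below that of Untreated at the other times. No test was made of these sums, which the few highest genes set.

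Steps between treated groups used libraries shared with the comparisons above. In U87, 5 members fell and 0 rose from D3 to D14, where 2.63% of all genes passed, 0.576% higher and 2.05% lower, and 5 had a higher value at an unadjusted p under 0.05 in limma, 1 of them at an adjusted p under 0.05. Without D3 2, 3 passed, and with only the 2 groups compared 1 passed. From D14 to D28, 0 of 34 passed in limma (2.12% of all genes, 1.78% higher and 0.332% lower), 12 had an unadjusted p under 0.05, and 1 passed with a pseudocount of 0.1. From D28 to D28WO, 5 rose and 0 fell (5.53%, 3.11% higher and 2.42% lower), with 7 lower at an unadjusted and 4 at an adjusted p under 0.05. In U251, 12 rose and 0 fell from D3 to D14 (6.49%, 3.19% higher and 3.29% lower), with 2 lower at an unadjusted and 1 at an adjusted p under 0.05. From D14 to D28, 3 rose and 5 fell (5.84%, 4.23% higher and 1.6% lower), with 1 rise without D14 2, and from D28 to D28WO 5 rose and 8 fell (9.26%, 1.12% higher and 8.14% lower).

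**Figure D5:**
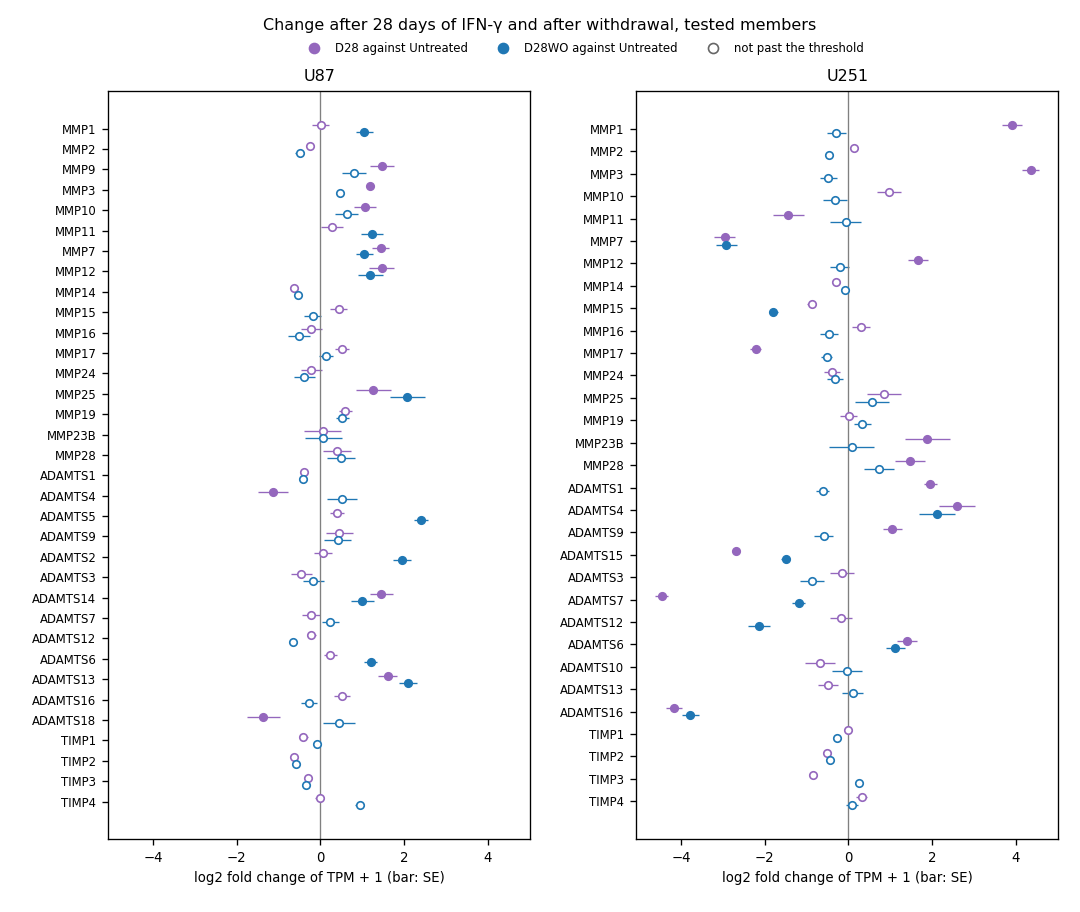
Log2 fold change of TPM + 1 with its SE for each tested member, D28 (purple) and D28WO (blue) against the shared Untreated libraries, in U87 (left) and U251 (right), with filled points past the threshold. In U251 MMP1 and MMP3 are high at D28 and near 0 at D28WO, while MMP7 and ADAMTS16 are low at both, and in U87 ADAMTS5 and ADAMTS2 are high at D28WO and not at D28.

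The genes of the connected lists were chosen with the members, and the share of all genes that passed is given above for each comparison. The lists hold 5 to 7 tested genes each, and their share past the threshold ran from 0 to 60%, the latter for 3 of 5 plasminogen genes at D28 in U251 (15.2% of all genes). Of the plasminogen system, which activates MMP precursors, 1 of 6 tested genes rose at D3 in U87, SERPINB2, an inhibitor of urokinase, at 36.8, 34 and 33 TPM in Untreated, 108 and 109 at D3, 24.2 and 20.9 at D14, 51.7, 66.6 and 43.7 at D28 and, after withdrawal, 62.7, 77.4 and 77.1 at D28WO. It rose by 1.62 ± 0.16 (SE), adjusted p = 4.01e-05 at D3 and by 1.04 ± 0.14 (SE), adjusted p = 1.29e-04 at D28WO, where PLAT, the tissue plasminogen activator, fell (-1.2 ± 0.26 (SE), adjusted p = 0.00278). The SERPINB2 call at D28WO was lost without library D28WO 2 or D28WO 3 (log2 fold changes 0.99 to 0.99, adjusted p = 0.000856 to 0.000966). In U251, PLAT was at 129.7, 133 and 132 TPM in Untreated, 36.7, 35.1 and 36 at D3, 82.8, 77 and 69.8 at D14, 40.5, 46.9 and 45.9 at D28 and, after withdrawal, 66.2, 63.6 and 79.4 at D28WO. Of the 5 tested genes of the list it alone fell at D3 (-1.84 ± 0.09 (SE), adjusted p = 1.79e-09) and at D28 (-1.55 ± 0.09 (SE), adjusted p = 1.01e-08). SERPINE2 (1.2 ± 0.10 (SE), adjusted p = 5.73e-07), an inhibitor of plasminogen activators, rose there at D28.

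Among the 6 tested activators and inhibitors outside the family in U87, which include FURIN and RECK, 0 passed against Untreated in limma at any time, and 2 to 3 of them had an unadjusted p under 0.05 at each. In U251, TFPI2, an inhibitor of serine proteases, was at 2.05, 0.452 and 0.973 TPM in Untreated, 3.29, 5.15 and 4.23 at D3, 5.57, 3.07 and 6.74 at D14, 6.53, 8.41 and 15.3 at D28 and, after withdrawal, 2.19, 3.05 and 1.55 at D28WO. TFPI2 rose at D3 (1.33 ± 0.35 (SE), adjusted p = 0.00788), D14 (1.52 ± 0.35 (SE), adjusted p = 0.00736) and D28 (2.35 ± 0.35 (SE), adjusted p = 1.15e-04). The proprotein convertase PCSK5 fell at D3 (-1.07 ± 0.28 (SE), adjusted p = 0.00797) and D28WO (-1.31 ± 0.28 (SE), adjusted p = 0.00334), and PCSK6 rose at D28 (1.43 ± 0.28 (SE), adjusted p = 0.00106). The PCSK5 call at D3 was lost without library D3 2 or Untreated 1 (log2 fold changes -0.84 to -0.82, adjusted p = 0.0383 to 0.0421).

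Of the 5 tested ADAMTS-like genes, which lack the protease domain, PAPLN alone passed against Untreated in U251, falling at D3, D14, D28 and D28WO, with -1.7 ± 0.31 (SE), adjusted p = 8.92e-04 at the last, and the D3 call was lost without library Untreated 2 (log2 fold change -0.97, adjusted p = 0.036). In U87, 0 passed against Untreated in limma, with 1 to 3 at an unadjusted p under 0.05 at each time. From D3 to D14, ADAMTSL1 rose there, from 42.45 and 40.2 TPM to 101 and 83.7 TPM. Of the 7 ADAM sheddases, ADAM19 fell in U251 at D3 (-1.64 ± 0.06 (SE), adjusted p = 2.56e-10) and D28 (-2.1 ± 0.06 (SE), adjusted p = 1.58e-11), while ADAM8 rose at D3 (1.44 ± 0.41 (SE), adjusted p = 0.0119) and D28 (1.55 ± 0.41 (SE), adjusted p = 0.00778). The ADAM8 call at D3 was lost without library D3 3 or Untreated 1 (log2 fold changes 1.15 to 1.18, adjusted p = 0.0533 to 0.0566). In U87, ADAM12 (-1.05 ± 0.14 (SE), adjusted p = 1.35e-04) and ADAM19 (-1.12 ± 0.14 (SE), adjusted p = 7.54e-05) fell at D28WO, and 0 passed at the other times in limma, with 3 to 5 at an unadjusted p under 0.05. The calls were lost for ADAM12 without library D28WO 1 or D28WO 2 (log2 fold changes -0.96 to -0.94, adjusted p = 0.00087 to 0.0009) and for ADAM19 without library D28WO 2 (log2 fold change -1.0, adjusted p = 0.000387).

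Of the 7 matrix substrates tested in U87, DCN, the proteoglycan decorin, was at 9.15, 7.75 and 4.68 TPM in Untreated, 62.1 and 63.2 at D3, 29.1 and 17.4 at D14, 55.2, 61.7 and 42.9 at D28 and, after withdrawal, 31.3, 32.5 and 33 at D28WO. DCN rose at D3 (3.0 ± 0.25 (SE), adjusted p = 1.27e-05), D14 (1.56 ± 0.25 (SE), adjusted p = 0.00957), D28 (2.75 ± 0.23 (SE), adjusted p = 6.91e-06) and D28WO (2.06 ± 0.23 (SE), adjusted p = 2.88e-05), with the D14 call lost without library D14 2 (log2 fold change 1.21, adjusted p = 0.102). VCAN, versican, a substrate of the hyalectanases, fell at D28WO (-1.04 ± 0.18 (SE), adjusted p = 8.07e-04), as did SPARC, a collagen-binding glycoprotein (-1.27 ± 0.10 (SE), adjusted p = 3.19e-06). The VCAN call was lost without library D28WO 1, D28WO 2 or Untreated 2 (log2 fold changes -0.98 to -0.97, adjusted p = 0.00405 to 0.00482). BCAN, brevican, another substrate of the hyalectanases, was at 8.99, 10.3 and 9.95 TPM in Untreated, 12.5 and 12.2 at D3, 7.5 and 5.12 at D14, 9.82, 5.3 and 5.62 at D28 and, after withdrawal, 12.2, 18.3 and 18.9 at D28WO in U87. Its value at D28WO against Untreated was short of the fold limit (0.68 ± 0.24 (SE), adjusted p = 0.0384), and it was the only one of the 7 to pass from D28 to D28WO, where it rose (1.16 ± 0.24 (SE), adjusted p = 0.00626). In U251, SPARC was at 2070.0, 2123 and 2081 TPM in Untreated, 583, 874 and 664 at D3, 1355, 1266 and 1213 at D14, 838, 839.8 and 887 at D28 and, after withdrawal, 852, 919 and 957 at D28WO. Of 6 substrates tested there, SPARC fell at D3 (-1.58 ± 0.11 (SE), adjusted p = 5.41e-08), D28 (-1.29 ± 0.11 (SE), adjusted p = 3.90e-07) and D28WO (-1.2 ± 0.11 (SE), adjusted p = 1.37e-06), and BGN, the proteoglycan biglycan, rose at D3 (1.21 ± 0.25 (SE), adjusted p = 0.00135).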

How the data were processed

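The study sequenced RNA of U87 and U251 cells in 30 libraries (5 groups a line, 3 libraries a group), and groups were taken from the sample labels. According to the study's methods, reads were trimmed with Trim Galore, mapped to GRCh38 by STAR and assigned to genes by featureCounts, after quality control with FastQC. The authors deposited TPM values, 1 table per line, and how TPM was computed and the strand setting are not given in the sources used here. TPM keeps no depth, so the reads behind a value are unknown. The 2 U87 columns that share a name were not used. The test used log2(TPM + 1) and every gene whose mean in the line reached 0.5 TPM, in limma 3.58.1 (R 4.3.3, lmFit and trended eBayes). All 5 groups of a line shared 1 fit. The threshold was a p, adjusted by Benjamini-Hochberg, under 0.05 together with a log2 fold change beyond 1 in either direction. The authors used edgeR and voom on counts. The procedure was tested on simulated data. Deviations from group means of libraries with the same replicate number correlated at -0.058 to 0.048, so the numbers were not treated as pairs. No pair of replicate libraries held identical values.

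Values per library are given for members with a group mean of at least 10 TPM in a line, members past the threshold in any comparison and the 4 TIMP genes, and other members by their range. CDH5, PECAM1, GFAP, NES, OLIG2, S100B, EPCAM and CDH1 and, at D28WO in U87, VIM and CD44 were named after their values were seen. The result of 1 gene of the connected lists is not reported here. Members, roles, lists and markers were chosen with earlier results of these data known. Promoters come from RefSeq (GRCh38.p14) and gene positions from GENCODE release 44. The alternatives were a pseudocount of 0.1, no filter, a minimum mean of 1 TPM, median-ratio size factors, quantile normalization, a fit of the 2 compared groups alone, a block for the replicate number, and omission of each library in turn. Tables and figures were made with Python 3.11.15.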

Additional observations from a re-analysis of the deposited data

Results flagged for a closer look

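In 15 of the 116 member and time pairs of the 29 members tested in both lines (12.9%), every library of that time in U87 lay on one side of all Untreated libraries of the line and every library of that time in U251 on the opposite side. At least 1 of the lines passed the threshold in each. Over all genes tested in both lines, 1.34% of 81892 such pairs met the same conditions. The difference between the lines was not tested, since their tables were normalized separately, and the 4 comparisons of a line share their Untreated libraries. The values are log2 fold changes against Untreated. ADAMTS1 was at -0.39 in U87 and 1.96 in U251 at D28. ADAMTS13 was at 1.4 in U87 and -1.17 in U251 at D14. ADAMTS16 was at 0.39 in U87 and -4.57 in U251 at D3, 0.46 in U87 and -1.74 in U251 at D14 and 0.51 in U87 and -4.17 in U251 at D28. ADAMTS4 was at -1.14 in U87 and 2.61 in U251 at D28. ADAMTS7 was at 0.23 in U87 and -1.19 in U251 at D28WO, where the median of all genes in U87 was 0.25 and the highest Untreated and lowest D28WO library of ADAMTS7 were at 8.58 and 8.587 TPM. MMP1 was at -0.73 in U87 and 2.7 in U251 at D14. MMP11 was at 1.02 in U87 and -1.18 in U251 at D14. MMP15 was at 0.61 in U87 and -1.33 in U251 at D3. MMP17 was at 0.52 in U87 and -2.22 in U251 at D28. MMP7 was at 1.28 in U87 and -4.47 in U251 at D3, 0.5 in U87 and -3.09 in U251 at D14, 1.44 in U87 and -2.96 in U251 at D28 and 1.04 in U87 and -2.92 in U251 at D28WO.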

How the results depend on the processing

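Of the 123 member results past the threshold, 78 kept their call under every alternative and 0 reversed direction. Quantile normalization lost 31 calls, the fit of only the 2 groups compared 16, median-ratio size factors 14, no filter 8, the pseudocount of 0.1 4, and the filter at 1 TPM 0 of 119. Without 1 library or more, 34 were lost. In U87, the members past the threshold at D3 numbered 9, with 3 under quantile normalization and 4 with only the 2 groups compared. The 3 at D14 became 0 under both. The 10 at D28 became 5 and the 10 at D28WO 5 under quantile normalization, and those at D28WO 6 under median-ratio size factors. The 5 from D3 to D14 became 1 with only the 2 groups compared, and the 0 from D14 to D28 became 1 with the pseudocount of 0.1. Quantile normalization removes the all-gene shift by construction, and the fit of 2 groups has fewer libraries. The cause of these changes in the counts was not tested.

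With each library left out in turn, U87 counts ranged from 4 to 10 at D3, 0 to 3 at D14, 6 to 9 at D28 and, after withdrawal, 7 to 10 at D28WO, and for the steps 3 to 4 from D3 to D14, 0 each time from D14 to D28, and 5 to 6 from D28 to D28WO. The lowest were without D3 2 (4 at D3 and 3 from D3 to D14), without D14 2 or D14 3 (0 at D14, and 1 without Untreated 3) and without D28 3 (6 at D28). In U251 they ranged from 10 to 13 at D3, 10 to 12 at D14, 13 to 16 at D28 and, after withdrawal, 7 to 9 at D28WO, and for the steps 12 to 13 from D3 to D14, 6 to 9 from D14 to D28, and 12 to 14 from D28 to D28WO. A lone library left in a group was assumed to vary like the other groups.

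With the replicate number as a block, the counts in U87 were 9 at D3, 2 at D14, 8 at D28 and, after withdrawal, 10 at D28WO, and in U251 12, 11, 15 and 8. The block lost 5 member calls. The libraries share only a number, so no pairing was read from it. TPM keeps no depth, which limits what can be said of members listed at 0.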
